A study of Mus musculus with 6 samples.

Results

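The 10 genes described here are 3 zinc-finger transcription factors of the early growth response family (Egr1, Egr2, Egr3), 3 immediate early response genes (Ier2, Ier3, Ier5), the antiproliferative genes Btg1 and Btg2, and the mRNA-decay genes Zfp36 and Zfp36l1. They were taken by symbol from the deposited mRNA table, which holds 21912 gene symbols, and transcripts sharing a symbol were summed. Their identifiers in the table are ENSMUSG00000038418 (Egr1), ENSMUSG00000037868 (Egr2), ENSMUSG00000033730 (Egr3), ENSMUSG00000053560 (Ier2), ENSMUSG00000003541 (Ier3), ENSMUSG00000056708 (Ier5), ENSMUSG00000036478 (Btg1), ENSMUSG00000020423 (Btg2), ENSMUSG00000044786 (Zfp36) and ENSMUSG00000021127 (Zfp36l1). The libraries came from mouse macrophages, 3 labelled M (M 1 to M 3) and 3 labelled control (control 1 to control 3). The series is about foam cells, the lipid-laden form that macrophages take when given oxidised low-density lipoprotein (ox-LDL). Control is written in the titles of the C libraries and nowhere in those of the M libraries, and the letter M is not explained. M is therefore taken here as the ox-LDL group from the absence of the word control, although the extraction text mentions ox-LDL for every library. Dose, time, strain and the source of the macrophages are not stated in the labels.

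Immediate-early genes are transcribed soon after a stimulus without new protein synthesis, many of them through serum response factor, its ternary complex partners and the ERK kinases. EGR proteins then bind GC-rich DNA and act on a second wave of genes. BTG and ZFP36 proteins act on mRNA instead, by recruiting the CCR4-NOT deadenylase. ZFP36 proteins do so at AU-rich elements of cytokine mRNAs, which limits the output of inflammatory cytokines by macrophages.

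Of the 10 genes, Ier3, Zfp36 and Ier2 rose in the M libraries, and Zfp36l1, Btg2 and Btg1 fell. Egr1, Egr2, Egr3 and Ier5 did not pass the test. Members of one family went in opposite directions: by mean FPKM (fragments scaled to transcript length and to the library's total) Zfp36 was 44.7% higher in M than in control, while Zfp36l1 changed by -52.6%. All 10 genes were tested, and 6 were called at an adjusted p under 0.05 by limma, where 43.1% of the 10390 tested genes were called. By direction, 3 members were higher, where 21.2% of all tested genes were, and 3 were lower, where 21.9% were. These 6 were also the members whose libraries did not overlap between the groups, which was so for 55.7% of all tested genes. The median log2 fold change was 0.11 over the members and -0.01 over all tested genes, and the median size was 0.30 over the members and 0.16 over all tested genes. A log2 fold change of at least 1 in size was reached with a call by Ier3 alone among the 10 and by 2.36% of all tested genes. Zfp36l1 reached it too with a pseudocount of 0.1 (-1.06), without M 2 (-1.02) and without control 3 (-1.03), and with a pseudocount of 5 no member did (Ier3 0.92).

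The promoters of the 4 members that changed most in size, a choice made after their values were seen, are printed to show the letters in front of a pair from one family that moved in opposite directions (Zfp36, Zfp36l1) and of the highest and another of the lowest members (Ier3, Btg2). Each is the 250 bases before the RefSeq gene start, 5′ to 3′ on the gene's strand, from the GRCm38.p6 table. Capitals mark matches to the motifs named below, except the GC box.
Ier3, chr17:35821463-35821712, plus strand: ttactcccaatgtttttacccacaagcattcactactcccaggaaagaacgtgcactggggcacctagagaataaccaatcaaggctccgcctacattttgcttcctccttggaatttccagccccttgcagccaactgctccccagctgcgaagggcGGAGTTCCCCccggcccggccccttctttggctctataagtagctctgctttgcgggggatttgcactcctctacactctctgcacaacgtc
Zfp36, chr7:28379229-28379478, minus strand: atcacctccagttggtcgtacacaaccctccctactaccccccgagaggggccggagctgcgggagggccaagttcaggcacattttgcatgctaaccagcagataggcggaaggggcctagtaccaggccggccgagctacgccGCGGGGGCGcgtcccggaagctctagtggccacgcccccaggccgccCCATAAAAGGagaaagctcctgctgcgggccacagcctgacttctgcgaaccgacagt
Zfp36l1, chr12:80113014-80113263, minus strand: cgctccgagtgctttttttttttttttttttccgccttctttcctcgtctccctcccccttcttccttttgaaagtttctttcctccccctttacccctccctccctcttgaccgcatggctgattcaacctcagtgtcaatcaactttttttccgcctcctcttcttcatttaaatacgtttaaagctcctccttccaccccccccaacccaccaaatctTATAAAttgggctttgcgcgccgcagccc
Btg2, chr1:134079156-134079405, minus strand: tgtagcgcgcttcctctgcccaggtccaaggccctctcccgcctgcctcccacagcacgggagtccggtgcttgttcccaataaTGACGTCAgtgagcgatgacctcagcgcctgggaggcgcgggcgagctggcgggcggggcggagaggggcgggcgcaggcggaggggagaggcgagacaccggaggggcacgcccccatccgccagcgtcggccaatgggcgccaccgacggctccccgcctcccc
The table held 7 of the 10 members (Btg1, Btg2, Egr2, Ier3, Ier5, Zfp36 and Zfp36l1). Zfp36 had a CArG box, the core bound by serum response factor, searched as CC, then 6 letters that are A or T, then GG. It lay 58 to 49 bases before the start, and the EGR motif GCGGGGGCG lay 105 to 97 bases before it. Of the 32851 windows in the table, 1.47% held a CArG box and 2.57% held GCGGGGGCG. Zfp36l1 held neither, and its capitals mark a TATA box (TATAAA, in 12.4% of windows) 29 to 24 bases before the start. Btg2 had the cyclic AMP response element TGACGTCA 166 to 159 bases before its start (1.55% of windows). Ier3 had an NF-kB motif 92 to 83 bases before its start (7.25% of windows), overlapped by a GC box. The CArG box of Zfp36 likewise shares its first base with a GC box. Among members not printed, Egr2 held a CArG box in 4 of its 5 windows, which overlap in part, and an NF-kB motif in the other window, and Btg1 held a TATA box. The GC box GGGCGG matched 6 of the 7 genes and 32.7% of windows. The antioxidant core TGACNNNGC (10.2% of windows) matched in Egr2 alone, and the AP-1 motif TGAGTCA (4.46%), the EGR motif GCGTGGGCG (0.536%) and the interferon-stimulated response element (2.98%) matched in 0 of the 7. All were searched on both strands, and a match describes letters only.

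Across the mRNA table, summed values lay between 375467 and 390581 FPKM per library. Over the tested genes, Pearson's r was 0.961 to 0.968 for an M with a control library and 0.990 to 0.993 for a pair within a group. The tables hold no read counts, so depth is unknown, and 0 was read only as listed at 0. The labels do not say whether replicates were separate cultures, so the p-values cover the spread among these 6 libraries, which may be technical. The 10 macrophage markers summed to 7786 to 8066 FPKM in M and 6092 to 6512 FPKM in control, most of it Lyz2 (6069 ± 173 FPKM in M and 4610 ± 199.5 FPKM in control, SD, n = 3 each), and Cd163 was listed at 0. Mertk was under the filter, at 0.127 ± 0.0526 FPKM in M and 0.128 ± 0.0604 FPKM in control (SD, n = 3 each). Of 8 tested, 5 rose (Lyz2, Itgam, Cd14, Adgre1 and Fcgr1), Mpeg1 fell (-0.16, limma adjusted p = 0.0132), and Cd68 and Csf1r were not called. By share, 62.5% rose beside 21.2% of all tested genes, and 12.5% fell beside 21.9%. With the most abundant transcript in place of the sum, 2 of the 8 were higher, where 1723 of all 10262 genes were. No macrophage marker was called lower without M 2 or after quantile normalization, where 1870 and 2244 of all 10390 genes were. Markers of other cell types were low: 7 T cell markers summed to 3.65 to 3.83 FPKM in M and 2.26 to 2.69 FPKM in control, nearly all of it the kinase gene Lck, with Cd3d, Cd3e, Cd3g and Cd8a at 0. The 7 dendritic cell markers summed to 1.65 to 2.09 FPKM in M and 2.71 to 3.64 FPKM in control, with Ccr7 and Cd209a at 0. Siglech was at 0.172 ± 0.0257 FPKM in M and 1.20 ± 0.398 FPKM in control (SD, n = 3 each), and Zbtb46, the only one tested, was not called (-0.04, limma adjusted p = 0.758). The 7 neutrophil markers reached 0.930 FPKM in M and 0.191 FPKM in control, with Ly6g, S100a9 and Mpo at 0. The 6 B cell markers (Ms4a1 and Pax5 at 0) reached 0.281 FPKM in M and 0.268 FPKM in control, and the 6 fibroblast markers (Lum at 0) reached 0.255 FPKM in M and 0.408 FPKM in control. The 5 endothelial markers reached 1.48 FPKM in M and 1.59 FPKM in control, and the 5 epithelial markers were at 0 throughout. The macrophage, T cell, dendritic and neutrophil sums did not overlap between the groups, and their part in the results was not tested.

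The EGR transcription factors were low in these macrophages, Egr2 and Egr3 lowest of all members in both groups, and none of the 3 was called. Egr1, the family member most widely induced by growth factors and stress, was at 6.23, 6.51 and 5.37 FPKM in M 1 to M 3, against 5.64, 4.83 and 4.24 FPKM in control 1 to control 3. The groups overlapped through control 1 and M 3. On log2(FPKM + 1), the scale of every fold change given here, the difference was 0.26 ± 0.103 (SE), with a 95% interval of 0.02 to 0.50 before adjustment and a limma adjusted p of 0.0776. Without control 1 it was 0.35 (adjusted p = 0.0321), the only library whose removal gave a call, and with a pseudocount of 5 it was 0.16.

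Egr2, a regulator of macrophage and lymphocyte differentiation, had 1.52, 1.60 and 1.08 FPKM in the M libraries, against 0.544, 1.12 and 1.08 FPKM in the control libraries. Control 1 was lowest, and M 3 lay among the other control values. Its mean in control, 0.914 ± 0.321 FPKM (SD, n = 3), was under the filter of 1 FPKM, which it passed on the mean of all 6 libraries. The log2 fold change was 0.33 ± 0.150 (SE), interval -0.01 to 0.68, limma adjusted p = 0.108. Without control 1 it was 0.19, and it was 0.60 with a pseudocount of 0.1 and 0.11 with one of 5. Of its 7 transcripts 3 were listed at 0 in every library, and ENSMUST00000048289 held most of the value, with 1.26 ± 0.325 FPKM in M and 0.779 ± 0.426 FPKM in control (SD, n = 3).

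Egr3, a close relative best known from lymphocytes, muscle spindles and neurons, had 2.16, 1.42 and 1.60 FPKM in M, against 3.12, 1.83 and 1.93 FPKM in control. The groups overlapped at M 1, and control 1 stood above the other libraries. The log2 fold change was -0.26 ± 0.166 (SE), interval -0.65 to 0.13, limma adjusted p = 0.242. Without control 1 it was -0.09, and with a pseudocount of 5 it was -0.11. Summed, the 3 EGR genes gave 8.05 to 9.90 FPKM in M and 7.25 to 9.30 FPKM in control. Egr1 made up 62.9% to 68.3% of that sum in M and 58.4% to 62.1% in control, which did not overlap (exact permutation test, two-sided, p = 0.1, the smallest that 3 against 3 libraries can give).

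Among the immediate early response genes, Ier3 rose. This gene (IEX-1) is induced by stress and NF-kB signals and modulates cell survival. It was at 16.1, 18.7 and 18.5 FPKM in M, against 6.90, 6.04 and 8.21 FPKM in control. The lowest M library was well above the highest control library. The mean was 17.8 ± 1.46 FPKM in M and 7.05 ± 1.09 FPKM in control (SD, n = 3 each), with a log2 fold change of 1.23 ± 0.105 (SE) and a limma adjusted p of 8.76e-05. By size of change it ranked 146 of the 10390 tested genes.

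Ier2, a short-lived nuclear protein gene of the growth factor response, was at 30.1, 29.5 and 31.9 FPKM in M, against 28.1, 24.6 and 24.2 FPKM in control. The groups did not overlap, with control 1 close to the M values. The log2 fold change was 0.24 ± 0.0636 (SE) and the limma adjusted p 0.0166. The call was lost without M 3 (adjusted p = 0.0572), without control 2 (0.0510) and without control 3 (0.0552). Ier5, which takes part in the control of the heat shock factor HSF1, was at 28.5, 27.8 and 27.3 FPKM in M and 29.6, 28.1 and 27.6 FPKM in control. Its values overlapped, and the log2 fold change of -0.03 ± 0.0426 (SE) had an interval of -0.13 to 0.07 (limma adjusted p = 0.642). Together the 3 IER genes summed to 74.8 to 77.8 FPKM in M and 58.7 to 64.7 FPKM in control. Ier3 made up 21.5% to 24.6% of that sum in M and 10.3% to 13.7% in control.

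**Figure D1:**
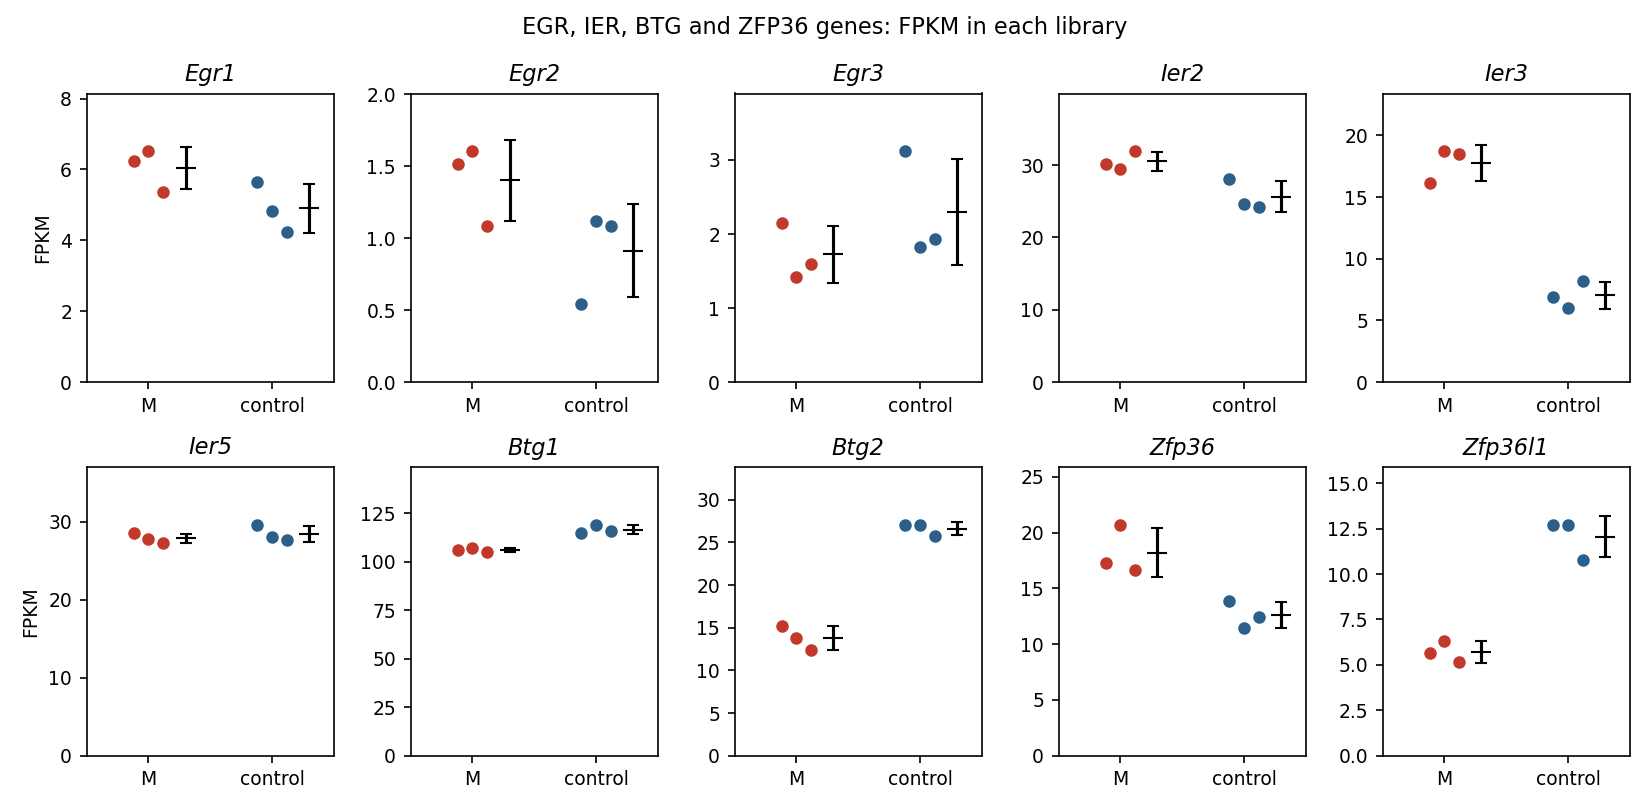
FPKM (vertical axes, from 0, scaled per gene) of the 10 genes in the 3 M libraries (red, left) and the 3 control libraries (blue, right), 1 point per library, with the mean and SD beside each group. Ier3, Ier2 and Zfp36 lie higher in M and Btg1, Btg2 and Zfp36l1 lower with no overlap, while the EGR genes and Ier5 overlap.

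Both antiproliferative genes fell. Btg1, a BTG/TOB family protein of resting cells, was the most abundant member by FPKM and exceeded 95.4% of tested genes. It was at 106, 107 and 105 FPKM in M, against 115, 119 and 116 FPKM in control. The libraries of each group lay close together and did not overlap with the other group. The log2 fold change was -0.13 ± 0.0344 (SE; limma adjusted p = 0.0160), and the call was lost without M 3 (adjusted p = 0.0517). In size of change Btg1 ranked 5990 of the 10390 tested genes, below their median size of 0.16.

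Btg2, an early-response gene also induced by p53, was at 15.2, 13.8 and 12.4 FPKM in M, against 27.0, 27.1 and 25.8 FPKM in control. Every M library was well below every control library. The mean was 13.8 ± 1.43 FPKM in M and 26.6 ± 0.734 FPKM in control (SD, n = 3 each), with a log2 fold change of -0.90 ± 0.0710 (SE) and a limma adjusted p of 4.88e-05. Together the BTG genes summed to 118 to 121 FPKM in M and 142 to 146 FPKM in control. Btg2 made up 10.5% to 12.5% of the sum in M and 18.2% to 19.1% in control.

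The ZFP36 genes split. Zfp36, which encodes tristetraprolin, the decay factor of Tnf mRNA, was at 17.2, 20.7 and 16.7 FPKM in M, against 13.8, 11.5 and 12.4 FPKM in control. The groups did not overlap. The mean was 18.2 ± 2.18 FPKM in M and 12.6 ± 1.18 FPKM in control (SD, n = 3 each), with a log2 fold change of 0.50 ± 0.0938 (SE) and a limma adjusted p of 0.00418.

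Zfp36l1, a paralog that binds the same kind of AU-rich element, was at 5.67, 6.33 and 5.14 FPKM in M, against 12.7, 12.7 and 10.8 FPKM in control. All M libraries lay below all control libraries. The mean was 5.71 ± 0.598 FPKM in M and 12.1 ± 1.13 FPKM in control (SD, n = 3 each), with a log2 fold change of -0.96 ± 0.0884 (SE) and a limma adjusted p of 0.000104. Zfp36 made up 75.3%, 76.6% and 76.5% of the sum of both genes in M 1 to M 3, against 52.2%, 47.5% and 53.7% in control 1 to control 3. The sum itself overlapped, at 21.8 to 27.0 FPKM in M and 23.2 to 26.5 FPKM in control. A further paralog, Zfp36l2, was more abundant by FPKM than both, with 96.3 ± 4.04 FPKM in M and 93.5 ± 0.362 FPKM in control (SD, n = 3 each). Its libraries did not overlap, but the log2 fold change of 0.04 was not called (limma adjusted p = 0.441) and was -0.014 after quantile normalization. With it, all 3 genes summed to 116 to 124 FPKM in M and 117 to 120.2 FPKM in control. In bulk RNA, fewer cells expressing a gene and less RNA per cell cannot be told apart.

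**Figure D2:**
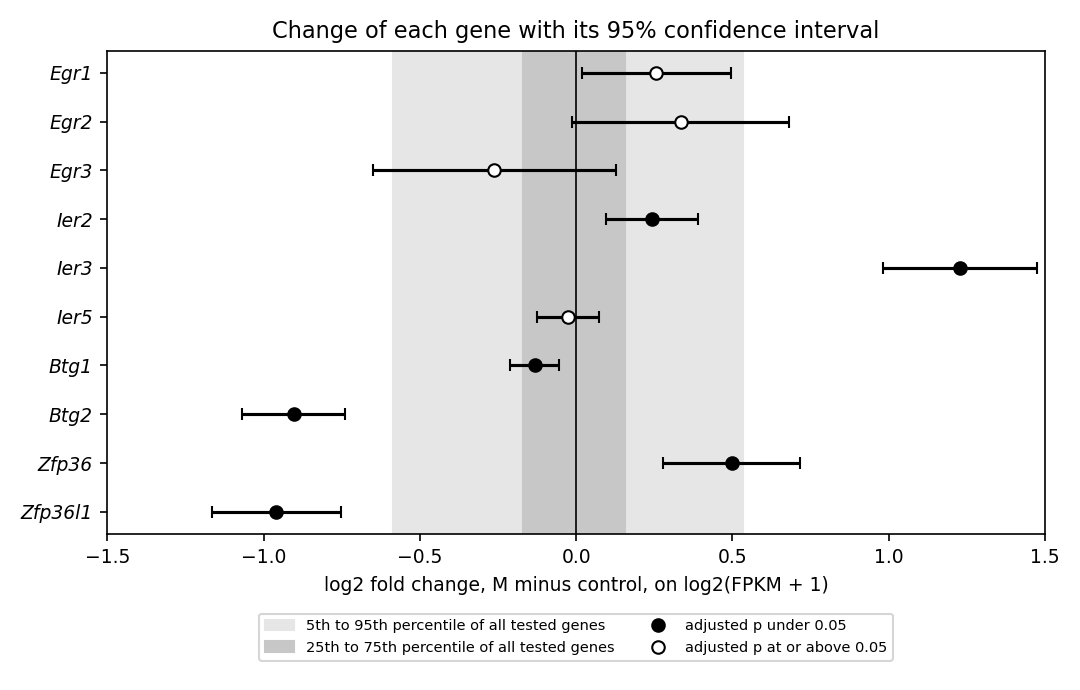
Log2 fold change of each gene, M minus control on log2(FPKM + 1) (horizontal axis), with limma's 95% interval before adjustment. Filled points were called, and the grey bands give the middle of all tested genes; Ier3 at 1.23, Btg2 at -0.90 and Zfp36l1 at -0.96 lie outside the wider band of -0.58 to 0.53.

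The order of levels differed between the groups. In M the means ran Btg1, Ier2, Ier5, Zfp36, Ier3, Btg2, Egr1, Zfp36l1, Egr3 and Egr2, and the ranges of Zfp36 and Ier3, of Egr1 and Zfp36l1, and of Egr3 and Egr2 overlapped. In control they ran Btg1, Ier5, Btg2, Ier2, Zfp36, Zfp36l1, Ier3, Egr1, Egr3 and Egr2, and the ranges of Btg2 and Ier2, of Ier5 and Ier2 and of Zfp36 and Zfp36l1 overlapped, so that Ier5 and Ier2 have no clear order there. Btg2 stood below Zfp36 and Ier3 in M, whereas it stood above both in control.

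The ratio of a pair of genes within a library was used to test whether family members differed in their response. Of 7 ratios, 6 did not overlap between the groups, where 55.7% of single tested genes did not. Each of the 6 had p = 0.1 in a two-sided exact permutation test (0.117 adjusted over the 7). That p is the smallest this design allows, so none could pass 0.05. The ratios share genes with one another, and the share without overlap among other gene pairs was not computed. The log2 ratio of Zfp36l1 to Zfp36, computed on FPKM + 1, was -1.45, -1.57 and -1.53 in M 1 to M 3, against -0.12, 0.14 and -0.19 in control 1 to control 3. That is a difference of -1.46, the highest in size of the 7. Both genes already separated the groups in opposite directions, so this ratio could not overlap and restates the single-gene results. For Ier3 to Ier2 the ratio averaged -0.75 ± 0.119 in M and -1.73 ± 0.241 in control (SD, n = 3 each), a difference of 0.98. For Btg2 to Btg1 it averaged -2.86 ± 0.133 in M and -2.09 ± 0.0406 in control, a difference of -0.77. The differences were -0.60 for Egr3 to Egr2, -0.52 for Egr3 to Egr1 and -0.27 for Ier5 to Ier2. That of Egr3 to Egr2 was -0.28 without control 1 (exact permutation p = 0.3) and -0.45 without M 2 (exact permutation p = 0.5). It was -0.98 with a pseudocount of 0.1 and -0.23 with one of 5. That of Egr3 to Egr1 was -0.44 without control 1 and -0.39 without M 2 (exact permutation p = 0.2 for each). With a pseudocount of 5 it was -0.27. For Egr2 to Egr1 the groups overlapped, and the difference of 0.08 (exact permutation p = 1) turned to -0.16 without control 1.

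By transcript, the 10 genes had 18 rows, of which 5 were listed at 0 in every library and 10 were tested. Of these, 5 were called by limma, those of Ier3, Zfp36, Btg1, Btg2 and Zfp36l1, where 18.7% of the 16851 tested transcripts were. The Ier2 transcript, the same values as its gene, had an adjusted p of 0.0643 in that fit.

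**Figure D3:**
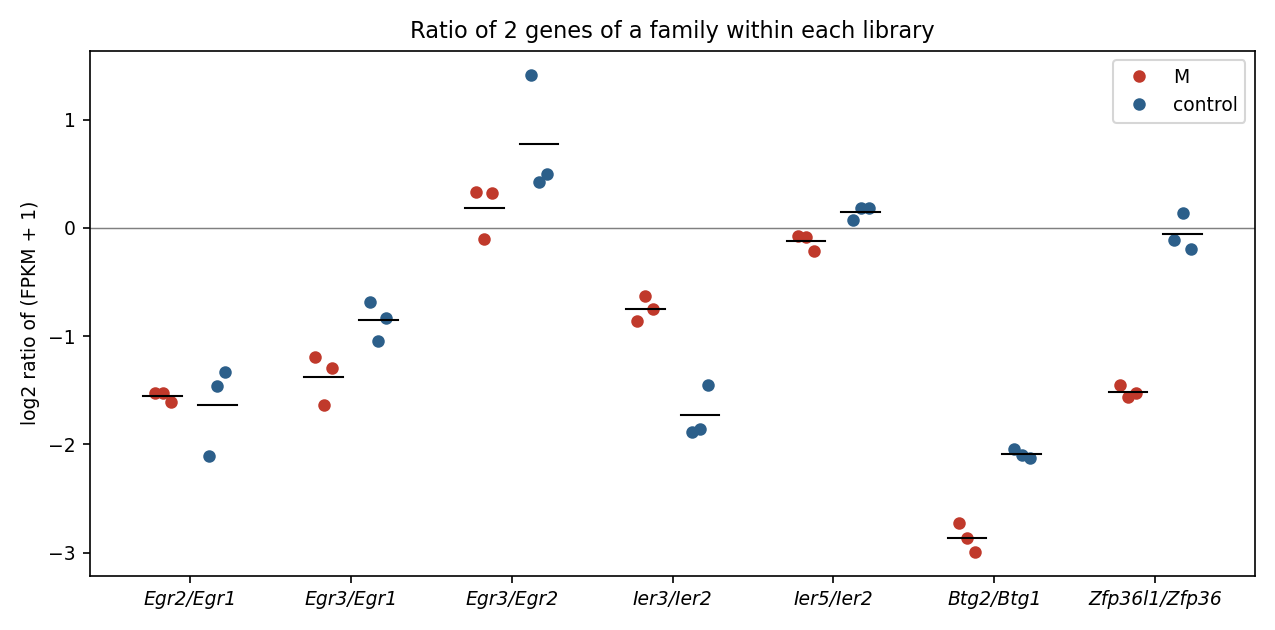
Log2 ratio of FPKM + 1 of 2 genes of a family within each library (vertical axis), for 7 pairs, with M in red on the left and control in blue on the right; bars are means of 3. Zfp36l1 to Zfp36 lies near -1.5 in every M library and near 0 in every control library, and Egr2 to Egr1 overlaps.

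Among relatives outside the 10 genes, Tob1 fell and Btg3 and Ier3ip1 rose. Of 10 listed relatives, 6 were tested, 2 rose and 1 fell, so 50% were called beside 43.1% of all tested genes. Tob1, an antiproliferative BTG/TOB protein that binds the same deadenylase, fell to 5.47 ± 0.365 FPKM in M, against 8.07 ± 0.329 FPKM in control (SD, n = 3 each; log2 fold change -0.49, limma adjusted p = 0.000595). Btg3 rose, with 3.21 ± 0.441 FPKM in M and 2.12 ± 0.449 FPKM in control (0.44, limma adjusted p = 0.0223), but was not called without M 2 (adjusted p = 0.0743), control 1 (0.0731) or control 3 (0.0683). Ier3ip1, which shares a name with Ier3 as its interacting protein, rose by 0.21 (limma adjusted p = 0.0127). Egr4, Wt1 and Btg4 were listed at 0 in every library.

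Among other immediate-early genes, Dusp4, Fosl1, Fosl2 and Dusp6 rose in M. Of 37 in the list, 31 were tested, and 21 were higher (67.7%), 1 lower (3.23%) and 9 not called. Over all tested genes, 21.2% were higher and 21.9% lower. The median log2 fold change was 0.65 beside -0.01 over all genes. Of the 21 higher, 6 averaged under 1 FPKM in control and passed the filter through M (Fosl1, Myc, Dusp5, Phlda1, Maff and Nr4a1), so the count over tested genes is raised by the filter. Among the 25 with at least 1 FPKM in both groups, 15 were higher, and the median was 0.60. No share of all genes under that limit was computed, so the 21.2% does not apply to this count. The ERK phosphatase Dusp4 was at 74.1 ± 1.95 FPKM in M and 15.9 ± 0.534 FPKM in control (SD, n = 3 each), a log2 fold change of 2.15. The AP-1 subunit Fosl1 was at 4.01 ± 0.350 FPKM in M and 0.212 ± 0.0860 FPKM in control (2.05). Fosl2, of the same family, rose by 0.92 and the phosphatase Dusp6 by 0.85, with limma adjusted p between 5.27e-08 and 6.18e-06 for the 4 genes. The gene called lower was Jund (-0.18, limma adjusted p = 0.0316), which was not called without M 2, M 3, control 1 or control 2 (adjusted p between 0.0644 and 0.106). Among the higher genes, Nr4a1 was not called in 5, Errfi1 in 4 and Junb in 1 of the 6 fits with 1 library left out. By most abundant transcript, Nr4a1 and Maff were not called (limma adjusted p = 0.0690 and 0.0910). With a filter of 5 FPKM 19 were tested and 11 were higher, where 1899 of all 8630 genes were. With a pseudocount of 5 the median was 0.30.

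Upstream genes were called about as often as all tested genes. Of 19 genes for serum response factor, its partners and the ERK and p38 kinases, 6 were higher, 3 lower and 10 not called, which is 47.4% called beside 43.1% of all tested genes, with a median of 0.01. The kinase genes Map2k1 (0.29, limma adjusted p = 0.000466) and Braf (0.37, 0.00173) and the ternary complex factor Elk1 (0.35, 0.00472) rose, and the kinase gene Rps6ka5 fell (-0.53, 0.000324). Srf itself had a log2 fold change of 0.01 (limma adjusted p = 0.940).

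Of 15 EGR co-repressors and genes known as EGR1 targets, 11 were tested, with 5 higher and 2 lower and a median of 0.13. That is 45.5% higher beside 21.2% of all tested genes, and 18.2% lower beside 21.9%. The transcription factor gene Ets2 was at 76.9 ± 8.11 FPKM in M and 19.7 ± 1.41 FPKM in control (SD, n = 3 each; log2 fold change 1.91, limma adjusted p = 5.53e-06). The urokinase receptor Plaur (1.47, 4.07e-06) and the hyaluronan receptor Cd44 (0.75, 4.91e-05) rose too, while urokinase itself, Plau, fell (-1.33, 5.79e-06). The EGR co-repressor Nab1 was among the higher genes (0.51, limma adjusted p = 0.000233), and Nab2 was not called (0.01, 0.944). With a filter of 5 FPKM the median was 0.31.

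Of the mRNAs that ZFP36 destabilises, Clec4e, Tnf, Ptgs2 and Cxcl2 rose. Of 14 tested 12 were higher (85.7%, beside 21.2% of all tested genes) and 0 lower (beside 21.9%), with a median of 0.91. Myc and Maff among them passed the filter through M. Among the 12 with at least 1 FPKM in both groups, 10 were higher, and the median was 0.84. The share of all genes under that limit was not computed, so the 21.2% does not apply to this count. The list holds 26 genes, one of them the member Ier3, and shares Maff, Myc and Plk2 with the immediate-early list. Of the 12 untested, 4 were listed at 0 (Cxcl1, Cxcl3, Il12b and Csf2). The C-type lectin Clec4e was at 117 ± 9.79 FPKM in M and 21.9 ± 1.05 FPKM in control (SD, n = 3 each; log2 fold change 2.37, limma adjusted p = 3.50e-07). The cytokine Tnf (1.15, 5.09e-06), the prostaglandin synthase Ptgs2 (2.12, 1.19e-05) and the chemokine Cxcl2 (2.79, 1.35e-05) rose too. With no filter 22 were tested and 13 were higher, where 2271 of all 14796 genes were, and the median was 0.43. With a pseudocount of 5 the median was 0.49. With the most abundant transcript in place of the sum, 8 of 13 were higher, where 1723 of all 10262 genes were.

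Of 26 deadenylases and decay factors that BTG/TOB and ZFP36 proteins work with, all tested, 11 were lower, 1 higher and 14 not called, with a median of -0.10. The share called, 46.2%, is near the 43.1% of all tested genes, and 42.3% were lower beside 21.9% of all tested genes. The deadenylase Cnot6l was at 24.9 ± 1.02 FPKM in M and 32.7 ± 1.73 FPKM in control (SD, n = 3 each; log2 fold change -0.38, limma adjusted p = 0.000806). The decapping enzyme Dcp2 (-0.55, 0.00131), the exosome subunit Exosc10 (-0.29, 0.00137) and the CCR4-NOT subunit Rqcd1 (-0.29, 0.00186) fell too. The count of lower genes was 7 without M 2 and 7 without control 3, where 1870 and 1963 of all 10390 genes were lower. Cnot7, which encodes the deadenylase that BTG proteins bind, was the 1 higher gene (0.15, limma adjusted p = 0.0445) and was not called when M 2, M 3 or any 1 control library was left out (adjusted p between 0.0668 and 0.131).

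Of 14 other AU-rich element binding proteins and their partners, 4 were lower, 1 higher and 9 not called, with a median of -0.07. The share called, 35.7%, is below the 43.1% of all tested genes. The decay factor Khsrp was lower (-0.50, limma adjusted p = 0.000135), as were Pcbp1 (-0.31, 0.00130) and Hnrnpd (-0.23, 0.00939; -0.10 and 0.112 for its most abundant transcript). The remaining lower gene was Rc3h1 (-0.17, 0.0130), and the higher one was the RNase gene Zc3h12a (regnase-1; 0.26, 0.00580). The stabilising protein gene Elavl1 was not called (-0.06, 0.340).

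Btg2 is a p53 target, and other p53 targets went both ways, with 6 of 17 tested higher, 7 lower and 4 not called and a median of -0.05. The share called was 76.5% beside 43.1% of all tested genes, with 35.3% higher (21.2% of all) and 41.2% lower (21.9% of all). Mdm2, the p53 ubiquitin ligase, was at 50.5 ± 3.25 FPKM in M and 31.1 ± 2.23 FPKM in control (SD, n = 3 each; log2 fold change 0.68, limma adjusted p = 0.000127). The pore-forming Bax rose by 0.44 (0.000180). The antioxidant sestrin Sesn1 fell to 14.5 ± 1.45 FPKM in M, against 27.2 ± 0.951 FPKM in control (-0.87, 6.06e-05), and Trp53inp1 fell as well (-0.69, 0.000101). Cdkn1a, the best known p53 target, was not called (0.07, 0.302). The count of lower genes was 4 of 17 without control 3, where 1963 of all 10390 genes were lower.

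**Figure D4:**
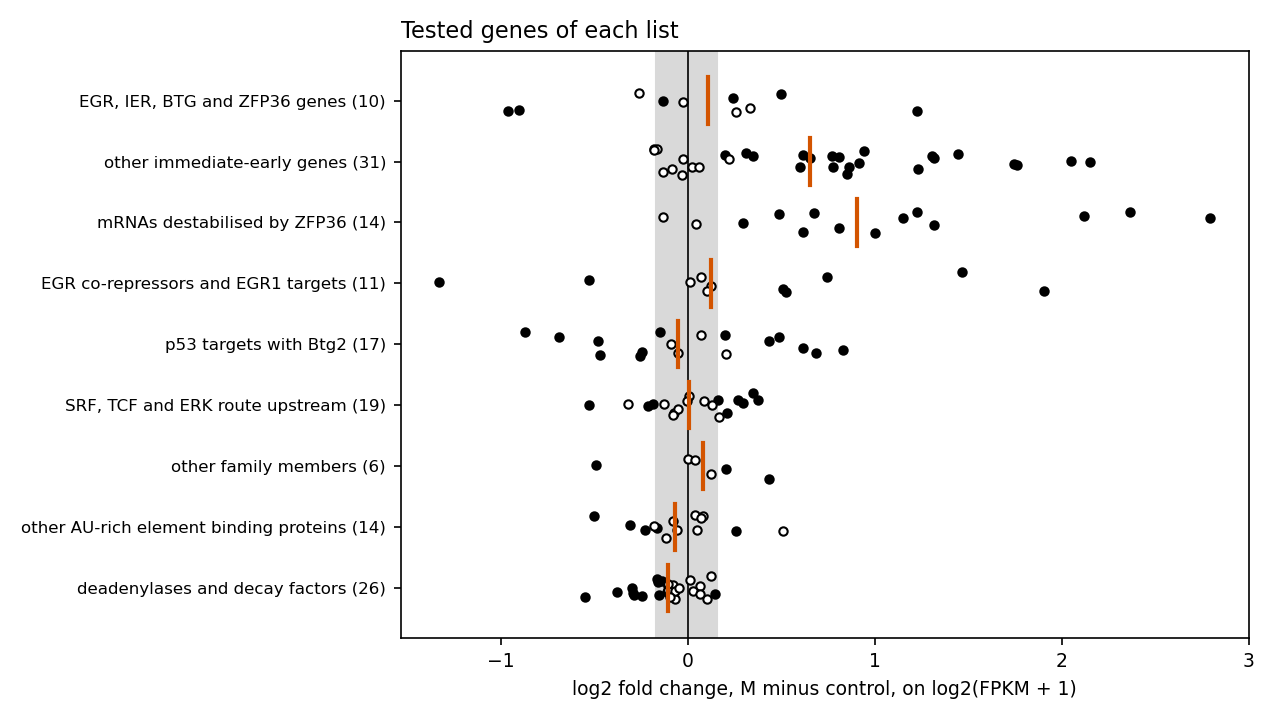
Log2 fold change, M minus control on log2(FPKM + 1) (horizontal axis), of the tested genes of each list, with their number. Filled points were called, orange bars are medians, the grey band is the 25th to 75th percentile of all tested genes, and vertical scatter within a row has no meaning. The medians of 0.65 (other immediate-early genes) and 0.91 (ZFP36-destabilised mRNAs) lie right of the band, and that of the 10 genes, 0.11, lies inside it. Both lists hold genes that passed the filter through M, and they share genes. Over their genes with at least 1 FPKM in both groups the medians were 0.60 and 0.84. The ZFP36 list also holds the member Ier3.

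For each member, the gene whose centred log2(FPKM + 1) values over the 6 libraries lay nearest by root mean square distance was named, among 8622 genes averaging at least 5 FPKM. For Zfp36l1 it was the histone gene Hist1h2ah, at 173, 180 and 154 FPKM in M 1 to M 3, against 351, 336 and 298 FPKM in control 1 to control 3 (distance 0.0308 log2 units). Histone genes have near-identical copies, so its level is uncertain. For Btg2 it was Asb10 (0.0271), at 4.68 ± 0.601 FPKM in M and 9.89 ± 0.165 FPKM in control (SD, n = 3 each). For Ier3 it was Raet1e (0.0782), a gene of the NKG2D ligand family, at 26.1 ± 0.317 FPKM in M and 11.3 ± 1.41 FPKM in control. For Zfp36 it was Samsn1 (0.0450), for Ier2 Glmp (0.0207), for Btg1 Serinc3 (0.00801), for Ier5 Supt5 (0.0135), for Egr1 Vezt (0.0325), for Egr2 Pex5 (0.0794) and for Egr3 Cpne1 (0.0720). The distance is computed on the same 6 libraries as the fold changes, so it also reflects the group difference.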

How the data were processed

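RNA of mouse macrophages was taken with Trizol and prepared with a TruSeq RNA kit, per the labels' protocols. The authors deposited FPKM per transcript, with mm9 as the genome build per the submitters' processing notes. Aligner, quantifier, annotation and strand setting: not given in the sources used here. No genome of that build was used. FPKM carry no depth, so no intervals for counting error are given.

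Transcripts were summed per symbol, the 10390 genes averaging 1 FPKM or more were kept, and log2(FPKM + 1) was fitted on group alone with limma 3.58.1 in R 4.3.3 (trended, robust eBayes). Two-sided p-values were adjusted by Benjamini-Hochberg across these genes, with calls under 0.05. A fold change on this scale understates the change of low genes. The fit was tested on simulated data. Ratios were tested by exact permutation. Alternatives were other pseudocounts (0.1, 5), filters, scalings, variance models, transcript choice, left-out libraries and replicate blocks. The lncRNA table held 0 symbols starting with a member's and was not used further.

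The members, 16 gene lists and tests were chosen with earlier results of these data known. Named genes were all members, per list up to 4 called genes by adjusted p (or the 2 most abundant, if no gene was called) and the nearest gene to each member. Cell type markers are given as sums, markers at 0 and a few genes. Cd68, Csf1r, Fcgr1, Mertk, Mpeg1, Jund, Srf, Nab1 and Nab2 were named outside it, after their values were seen. So were Cnot7, Rc3h1, Elavl1, Cdkn1a, Zfp36l2, Errfi1, Junb and the genes that passed through M. The counts and medians over genes at 1 FPKM in both groups were added then too. Promoters were matched to RefSeq by symbol.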

Additional observations from a re-analysis of the deposited data

How the results depend on the processing

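The calls of Ier3, Zfp36, Btg2 and Zfp36l1 held under all 15 alternatives, with log2 fold changes of 0.92 to 1.33, 0.40 to 0.56, -0.97 to -0.75 and -1.06 to -0.67. Leaving out 1 library left 2 to 4 members called higher and 2 to 3 lower, and 3686 to 4285 genes called of all tested (4480 with all libraries). Ier5 ran over -0.047 to 0.0021 when 1 library was left out, the highest without control 1. The log2 ratio of Egr2 to Egr1 differed by -0.043 with a pseudocount of 5 and by -0.16 to 0.23 when 1 library was left out; the cause was not tested. Over single transcripts 3158 were called, with 2011 to 2552 when 1 library was left out.

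The groups share replicate numbers, but deviations of same-numbered libraries correlated at 0.07, 0.005 and -0.03, and only M 1 correlated best with its own number, so the numbers were not taken as pairs. With the replicate number as a block 4300 genes and 1580 transcripts were called, and Egr1 was called (adjusted p = 0.0376). Without read counts no limit of detection can be given.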
